A study of Mus musculus with 70 samples.

Results

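Immunoglobulin heavy chain variable (Ighv) genes were followed in B cells sorted from the blood of mice after chronic social defeat stress (CSDS). The set held every row of the count table whose GENCODE M21 symbol begins with Ighv and whose gene type is IG_V_gene, which gave 113 of the 52636 genes in the table. All 113 lie on the minus strand of chromosome 12 between positions 113578504 and 116000461 of GRCm38, a span of 2.422 Mb. The rule uses symbol and gene type, not expression. Rows of 70 Ighv pseudogenes and 2 Ighv rows of another gene type were left out of the set.

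Each developing B cell joins a single V gene to a D and a J segment by V(D)J recombination, and the joined exon is transcribed with a constant region to give the heavy chain of its antibody. The share of Ighv reads that falls on each V gene therefore reads out how common cells with that joined V gene are among the cells sampled. It is weighted by how much heavy chain RNA each cell makes, and is not a direct measure of how often the gene was joined. Naive B cells use many V genes, whereas an expanded clone or a pool of plasma cells concentrates reads on a few. B-1 cells, a lineage formed early in life, are known for a restricted repertoire in which Ighv11-2 and Ighv12-3 recur.

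The mice were C57BL/6J, aged 7 to 8 weeks, and no transgene or mutation is named for them. Stressed mice met CD-1 aggressors over 10 days, and were then grouped by a social interaction test into susceptible (SUS, socially avoidant) and resilient (RES) mice, while control (CON) mice were housed in pairs without defeat. B cells were taken as B220+ cells of trunk blood after red cell lysis, and 18 B cell libraries were made. The sample labels name the tissue as brain, whereas the methods and the design text say blood. The labels name no animal and no batch, so p-values measure the spread between these libraries only. The gene counts per library used here ran from 30140183 to 42074062, of which 13813 to 34180 fell on Ighv genes.

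In the 17 B cell libraries used (6 CON, 6 SUS and 5 RES), Cd79a, a signalling chain of the B cell receptor, stood between 912.3 and 1799 CPM (counts scaled to the gene total of the library, here without further normalization), Pax5, a transcription factor of B cell identity, between 339.5 and 1015 CPM, and the 6 T cell markers summed to at most 6.85 CPM. RES replicate 52 went against its label: Cd79a stood at 4.91 CPM and Pax5 at 0.0726 CPM in it, its T cell markers summed to 1740 CPM, and it held 9 Ighv counts. It was left out by the rule that defines the set. The RES T cell library numbered 70 went against its label in the other direction, with Cd79a at 1079 CPM and Pax5 at 625.9 CPM, and was kept out of every B cell comparison.

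The sequences below show the 4 genes most used in CON mice, as the last 300 bases of the spliced transcript in GENCODE M21, written 5′ to 3′ in the sense direction. Capitals mark the 9 letters TGTGCAAGA, which start at the codon of the conserved cysteine where the V segment meets the junction. The genes lie at chr12:114788372-114788805 (Ighv1-26), chr12:115952538-115953005 (Ighv1-82), chr12:115912344-115912776 (Ighv1-80) and chr12:114140692-114141122 (Ighv9-3).
Ighv1-26: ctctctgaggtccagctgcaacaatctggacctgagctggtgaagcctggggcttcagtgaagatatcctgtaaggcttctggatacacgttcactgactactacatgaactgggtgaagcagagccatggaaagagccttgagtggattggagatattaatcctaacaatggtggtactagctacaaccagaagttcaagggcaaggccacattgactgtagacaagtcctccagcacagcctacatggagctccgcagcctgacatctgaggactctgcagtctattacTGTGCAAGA
Ighv1-82: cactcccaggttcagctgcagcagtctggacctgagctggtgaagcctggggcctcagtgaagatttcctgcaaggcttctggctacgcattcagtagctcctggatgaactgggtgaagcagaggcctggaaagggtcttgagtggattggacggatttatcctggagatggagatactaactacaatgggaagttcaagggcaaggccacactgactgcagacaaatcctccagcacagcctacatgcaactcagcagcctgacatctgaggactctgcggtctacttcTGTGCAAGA
Ighv1-80: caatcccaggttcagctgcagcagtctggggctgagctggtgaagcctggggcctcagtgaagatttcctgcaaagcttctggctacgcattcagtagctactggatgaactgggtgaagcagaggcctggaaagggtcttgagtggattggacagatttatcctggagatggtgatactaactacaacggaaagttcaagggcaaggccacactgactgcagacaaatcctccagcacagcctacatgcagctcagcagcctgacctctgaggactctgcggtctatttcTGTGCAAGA
Ighv9-3: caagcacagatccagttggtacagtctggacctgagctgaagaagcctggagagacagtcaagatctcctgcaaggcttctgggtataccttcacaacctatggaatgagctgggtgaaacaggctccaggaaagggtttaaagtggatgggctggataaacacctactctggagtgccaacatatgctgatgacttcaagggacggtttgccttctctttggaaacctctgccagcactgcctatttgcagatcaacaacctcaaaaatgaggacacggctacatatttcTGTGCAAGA
Ighv1-82 and Ighv1-80 differed at 12 of these 300 positions (96% identity), whereas Ighv1-26 differed from each of them at 45. Ighv9-3, of another family, shared 65.3% of positions with Ighv1-26. TGTGCAAGA stood within the last 20 bases of 63 of the 113 genes (55.8%), and its reverse complement in 0 genes. These 63 genes held 72.3% ± 1.23 (SD, n = 6) of Ighv counts in CON, 73.0% ± 1.25 (n = 6) in SUS and 72.3% ± 1.92 (n = 5) in RES libraries.

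The next sequences show Ighv11-2, whose SUS and CON libraries did not overlap (chr12:114048241-114048812), and its near-identical copy Ighv11-1 (chr12:113981879-113982341). Capitals mark the positions at which they differ, 4 of the last 300 bases.
Ighv11-1: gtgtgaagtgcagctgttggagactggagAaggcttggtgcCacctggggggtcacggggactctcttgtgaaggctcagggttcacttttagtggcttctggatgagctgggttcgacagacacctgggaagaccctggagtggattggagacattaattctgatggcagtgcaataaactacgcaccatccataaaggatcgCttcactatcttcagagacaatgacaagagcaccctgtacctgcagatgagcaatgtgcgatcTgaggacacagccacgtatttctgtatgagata
Ighv11-2: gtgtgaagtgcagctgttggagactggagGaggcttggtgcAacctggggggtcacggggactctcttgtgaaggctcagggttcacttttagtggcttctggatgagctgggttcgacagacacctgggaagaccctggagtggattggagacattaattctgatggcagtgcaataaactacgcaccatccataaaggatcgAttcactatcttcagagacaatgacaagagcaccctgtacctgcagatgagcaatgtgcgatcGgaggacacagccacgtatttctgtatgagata
Ighv11-1 received 39 counts over the 17 libraries and Ighv11-2 received 920, so nearly all reads of the family were assigned to Ighv11-2. The labels and methods do not say how reads that fit several genes were treated, and 75.2% of the 75-base stretches of Ighv11-2 occurred in no other Ighv transcript.

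Usage in unstressed mice was broad and led by Ighv1-26. Its share of Ighv counts in the CON libraries was lowest at 5.35%, had a median of 6.42% and was highest at 6.93%. In SUS libraries the share of Ighv1-26 ran from 5.50% to 7.99% with a median of 5.64%, and in RES libraries it was 5.98%, 5.54%, 6.59%, 6.35% and 5.91%. The 3 groups overlapped throughout, and Ighv1-26 held the largest share in 15 of the 17 libraries. The exceptions were CON replicate 38, in which Ighv1-80 led with 5.97%, and SUS replicate 51, in which Ighv1-82 led with 5.68%. Ighv1-82 held 4.48% ± 0.43 (SD, n = 6) of Ighv counts in CON, 4.75% ± 0.95 (n = 6) in SUS and 4.83% ± 0.73 (n = 5) in RES libraries. Ighv1-80 held 4.16% ± 1.01, 3.51% ± 0.35 and 3.98% ± 0.60 in the same order, and Ighv9-3 held 3.95% ± 0.69, 4.23% ± 0.35 and 3.77% ± 0.33. Among neighbours in the CON order, the ranges of Ighv1-82, Ighv1-80 and Ighv9-3 overlapped, while the lowest CON value of Ighv1-26 stood above the highest of Ighv9-3 (4.89%).

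The next 6 genes by CON share were Ighv1-9 (3.42% ± 0.36), Ighv1-64 (3.14% ± 0.73), Ighv1-69 (2.81% ± 0.37), Ighv1-55 (2.66% ± 0.37), Ighv3-6 (2.53% ± 0.58) and Ighv6-3 (2.52% ± 0.59; SD, n = 6 each). The 10 genes most used in CON held 35.9% of Ighv counts there. Of these 10, 8 were also among the 10 most used genes in SUS and 7 among those in RES libraries. With counts divided by exon length, which ran from 294 to 480 bases, 9 of the 10 stayed among the first 10 in CON.

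**Figure D1:**
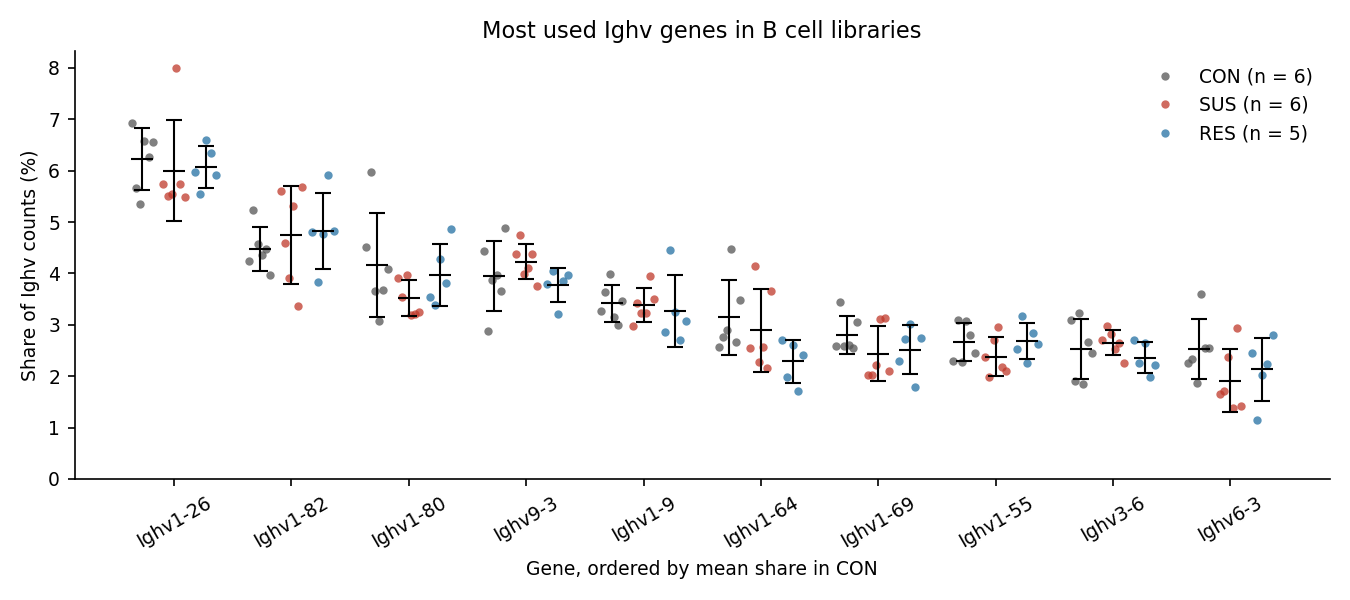
Share of all Ighv counts (percent, y axis) of the 10 genes most used in CON, for each B cell library. Points are libraries of CON (grey, n = 6), SUS (red, n = 6) and RES (blue, n = 5), and bars give the mean ± SD. The 3 groups overlap for each of the 10 genes, with Ighv1-26 at 5.35% to 7.99% highest.

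Usage fell off steeply below these genes. In CON, 17 genes made up 50% of Ighv counts and 54 genes made up 90%, while 26 genes stayed under 0.1%. Of the 113 genes, 81 had a count in every one of the 17 libraries, and between 92 and 101 were detected in each library. No count fell on 6 genes (Ighv5-12-4, Ighv7-2, Ighv16-1, Ighv1-16, Ighv1-24 and Ighv1-62-1) in any of the 17 libraries. For 3 of these 6, every 75-base stretch of the transcript was unique among Ighv transcripts. These genes had 0 of 397899 Ighv counts over the 17 libraries, which allows a share of up to 0.000754% by counting error alone, and up to 0.0217% in the shallowest library.

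Near-identical copies limit what the counts of a few genes mean. Ighv1-71 and Ighv1-62-2 are identical over their last 300 bases, yet received 71 and 930 counts over the 17 libraries, so their separate values are uncertain. The pair Ighv1-62-3 and Ighv1-72 is shown because it differs at only 3 of 300 bases, in capitals, and received 318 and 8895 counts.
Ighv1-62-3: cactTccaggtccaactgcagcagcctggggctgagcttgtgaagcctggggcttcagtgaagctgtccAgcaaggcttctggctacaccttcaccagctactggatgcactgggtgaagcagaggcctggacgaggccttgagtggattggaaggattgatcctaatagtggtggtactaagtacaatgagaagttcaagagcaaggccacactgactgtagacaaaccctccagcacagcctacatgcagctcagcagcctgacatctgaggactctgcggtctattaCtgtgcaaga
Ighv1-72: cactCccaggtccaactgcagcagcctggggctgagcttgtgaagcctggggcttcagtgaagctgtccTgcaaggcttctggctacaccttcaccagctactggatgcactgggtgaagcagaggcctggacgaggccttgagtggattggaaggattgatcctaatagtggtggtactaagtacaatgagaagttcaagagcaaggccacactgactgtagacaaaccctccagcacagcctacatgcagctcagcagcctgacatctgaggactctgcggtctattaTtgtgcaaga
Over all 113 genes, Spearman's rho of the CON share was 0.0078 with the percentage of unique 75-base stretches and 0.15 with exon length. These are correlations across genes of the same 6 libraries, which share read counting and depth, and genes are not replicates.

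The Ighv1 family, the large J558 family of the mouse, held 53 of the 113 genes and most of the counts. Its share was 60.7% ± 1.15 (SD, n = 6) in CON, 61.5% ± 1.95 (n = 6) in SUS and 61.2% ± 1.55 (n = 5) in RES libraries, and the ranges overlapped. Ighv5, the family of genes nearest to the D segments, followed with 8.94% ± 0.81, 8.83% ± 1.46 and 9.07% ± 0.94 over 10 genes, led by Ighv5-4. Ighv9 held 6.21% ± 0.70, 6.48% ± 0.84 and 5.92% ± 0.62 over only 4 genes. Ighv14 (4.50% ± 0.67 in CON), Ighv2 (3.91% ± 0.73), Ighv6 (3.51% ± 0.42), Ighv3 (3.48% ± 0.85), Ighv8 (3.46% ± 0.53) and Ighv10 (2.22% ± 0.34) each held between 2% and 5%. Their leading genes were Ighv14-2, Ighv2-2, Ighv6-3, Ighv3-6, Ighv8-8 and Ighv10-3. Ighv7, Ighv13, Ighv4, Ighv11, Ighv15 and Ighv12 each held under 1.5%, and Ighv16 received no count. In 1 family, Ighv11, the SUS and CON libraries did not overlap, and its values are given with those of Ighv11-2.

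V genes compete for the D segments over a long distance, and the locus is contracted in developing B cells so that distal genes can reach them. In CON, the 37 genes more than 1500 kb from the nearest D gene held 40.3% ± 1.17 of Ighv counts, the 50 genes between 500 and 1500 kb held 43.5% ± 0.71, and the 26 genes within 500 kb held 16.2% ± 0.57 (SD, n = 6). The distal share was 41.0% ± 0.94 in SUS and 41.3% ± 1.95 in RES libraries, 0.64 and 0.59 pooled SDs above CON, with overlapping ranges. The proximal share was 15.8% ± 1.80 in SUS and 16.9% ± 1.34 in RES libraries. Across the 113 genes, Spearman's rho between the CON share and the distance from the D segments was 0.12.

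**Figure D2:**
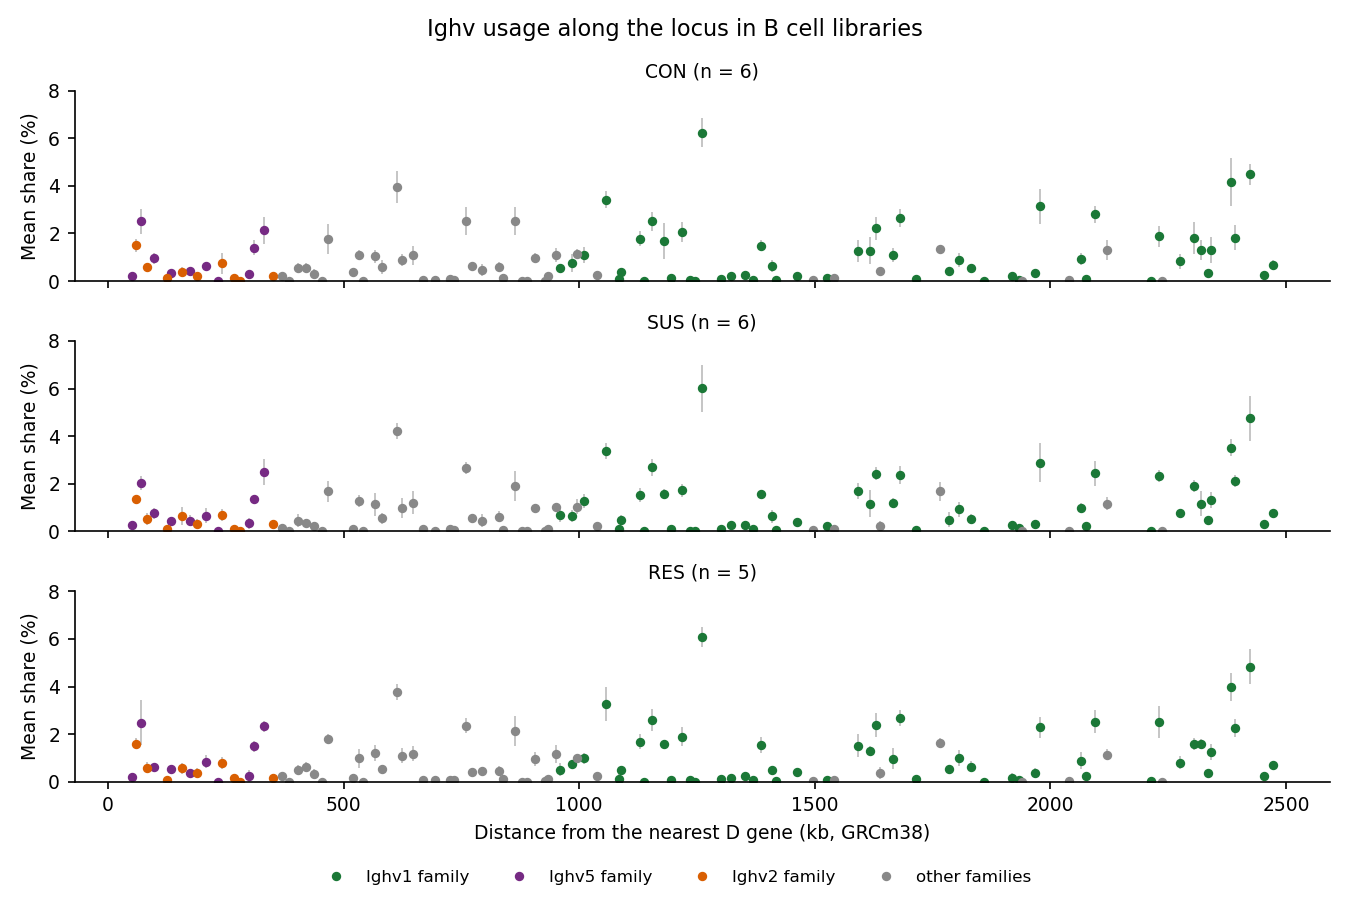
Mean share of Ighv counts (percent, y axis) of each of the 113 genes against its distance from the nearest D gene (kb, x axis) in CON, SUS and RES B cell libraries. Points are genes, coloured for the Ighv1, Ighv5 and Ighv2 families, and bars are SDs over libraries. Ighv2 and Ighv5 genes lie nearest to the D genes and Ighv1 genes fill the distal part in each panel, and the same peaks, such as Ighv1-26, stand out in the 3 panels.

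The first question was whether B cells of stressed mice used a narrower set of V genes. Evenness of usage, the Shannon entropy of the shares divided by its maximum for 113 genes, averaged 0.858 ± 0.010 (SD, n = 6) among CON libraries, 0.862 ± 0.0075 (n = 6) among SUS and 0.861 ± 0.0057 (n = 5) among RES libraries. The CON values were 0.857, 0.839, 0.868, 0.857, 0.866 and 0.859. In SUS libraries they were 0.865, 0.868, 0.871, 0.851, 0.858 and 0.859, and in RES libraries 0.865, 0.869, 0.859, 0.857 and 0.857. The groups overlapped, CON replicate 38 was lowest, and SUS and RES stood 0.48 and 0.43 pooled SDs above CON. The effective number of genes by the inverse Simpson index averaged 43.0 ± 2.16 in CON, 44.3 ± 2.32 in SUS and 44.2 ± 1.61 in RES libraries. The 10 most used genes of each library held 37.1% ± 1.40, 35.9% ± 1.20 and 36.1% ± 1.03 of its Ighv counts. No test was run on these summaries, and their differences were smaller than the spread between libraries of a group.

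The summed level of the 113 genes, on the scale of CPM normalized with TMM, averaged 665 ± 54.3 in CON, 616 ± 96.7 in SUS and 627 ± 43.9 in RES libraries. The lowest, median and highest values were 604, 655 and 761 CPM in CON and 508, 585 and 756 CPM in SUS, and the 5 RES libraries stood at 574, 600, 619, 662 and 680 CPM. The groups overlapped. No test was run on these sums, and without TMM the means were 659, 620 and 649 CPM in CON, SUS and RES libraries. Were a group lower, fewer B cells with high heavy chain expression and less heavy chain RNA per cell could not be told apart in such bulk libraries.

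**Figure D3:**
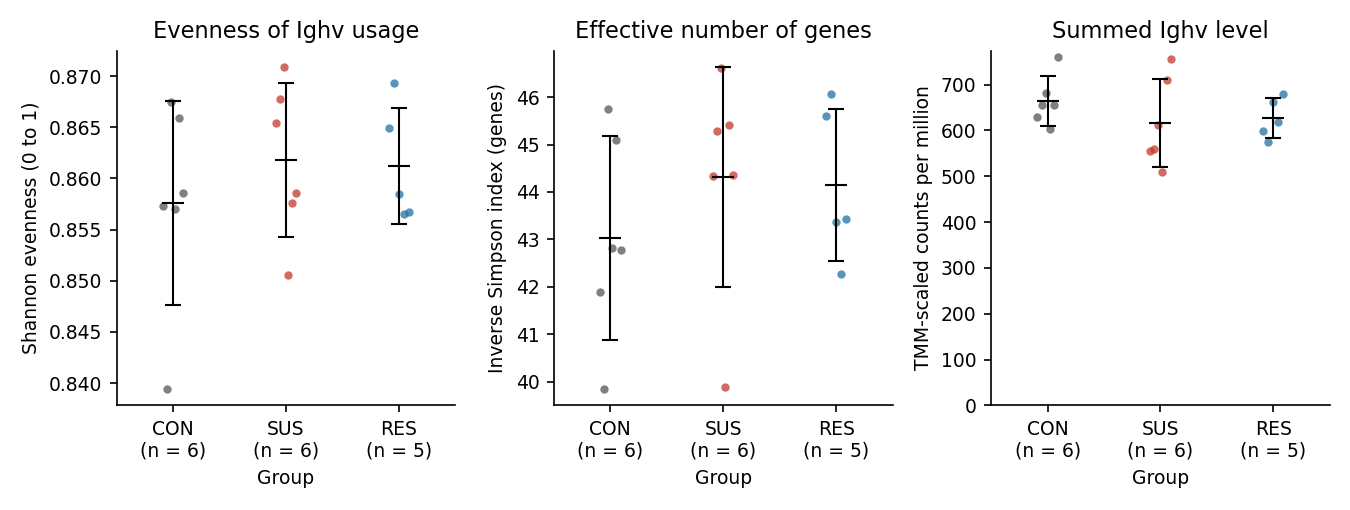
Shannon evenness of Ighv usage, effective number of genes (inverse Simpson index) and summed Ighv level (TMM-scaled CPM) in each B cell library of CON (n = 6), SUS (n = 6) and RES (n = 5). Points are libraries and bars the mean ± SD; the first 2 axes do not start at 0. The 3 groups overlap in each panel, and CON replicate 38, at an evenness of 0.839, is lowest.

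Usage was compared between pairs of libraries, within and between groups. The Bray-Curtis distance between the usage of 2 libraries had a median of 14.1% over the 40 pairs within a group and of 14.0% over the 96 pairs between groups. Every pair differed by more than counting error, with chi-square values between 9.67 and 34.4 per degree of freedom, and 0 of 136 pairs were identical. Among the 77 genes with a mean of at least 50 counts, the coefficient of variation of the share over the 17 libraries had a median of 31.7%, where counting error alone would give 6.61%. It was lowest for Ighv1-26 (11.2%) and highest for Ighv1-62-2 (69.4%). Genes with a mean share of at least 1% had a median coefficient of variation of 23.1% (37 genes), and those below it of 42.2% (40 genes).

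In some libraries a gene was nearly missing. With thresholds chosen after the values were seen, among the 1309 combinations of these 77 genes and 17 libraries, the share was under 0.2 times the gene's median in 18, spread over 12 genes, and above 2.5 times the median in 11. CON replicate 38 held 5 of the 18. In it, Ighv2-5 fell on 4 counts (0.020% against a median of 0.45%), Ighv2-9 on 1 count, Ighv2-6 on 6, Ighv1-47 on 10 and Ighv2-9-1 on 25 counts. SUS replicate 45, with the fewest Ighv counts (13813), held 3, of Ighv14-1, Ighv8-6 and Ighv3-1. Ighv2-9 had 0 counts in RES replicate 46, against a median share of 0.23%. No gene with a median share above 0.76% was among these.

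For each gene, groups were compared with edgeR's quasi-likelihood test over all 17620 genes with sufficient counts, of which 99 were Ighv genes. The other 14 members had too few counts to be tested. In SUS vs. CON mice, 0 of the 99 Ighv genes passed an adjusted p-value (Benjamini-Hochberg, over all genes tested) under 0.05 with an absolute log2 fold change above 1, where 0.00568% of all genes tested did. For RES against CON mice, 0 of 99 passed and 0% of all genes tested did, and the same counts held for SUS against RES mice. At an unadjusted p under 0.05, 0 Ighv genes were higher and 2 lower in SUS than in CON mice, where 1.99% and 1.43% of all genes tested were. In RES vs. CON mice these were 0 higher and 3 lower (all genes 1.8% and 1.37%), and in SUS vs. RES mice 0 and 0 (0.636% and 0.726%). DESeq2 on the same libraries put 3, 4 and 0 Ighv genes at an unadjusted p under 0.05 in the 3 comparisons, where 4.25%, 3.95% and 1.92% of all genes tested were. It called 1, 0 and 0 Ighv genes, where it called 0.148%, 0.0341% and 0% of all genes tested. The median log2 fold change of the 99 genes was -0.06 in SUS vs. CON (39 higher, 60 lower), -0.12 in RES vs. CON (38 and 61) and -0.03 in SUS vs. RES mice (45 and 54), beside medians of all genes between -0.0015 and 0.0010. When libraries were scaled to their summed Ighv counts instead, so that a fold change is one of usage, these splits became 51 and 48, 48 and 51, and 50 and 49. The median of all genes moved to 0.13, 0.08 and 0.05. This scaling makes the summed Ighv level equal between libraries, so splits near even were partly set by it.

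**Figure D4:**
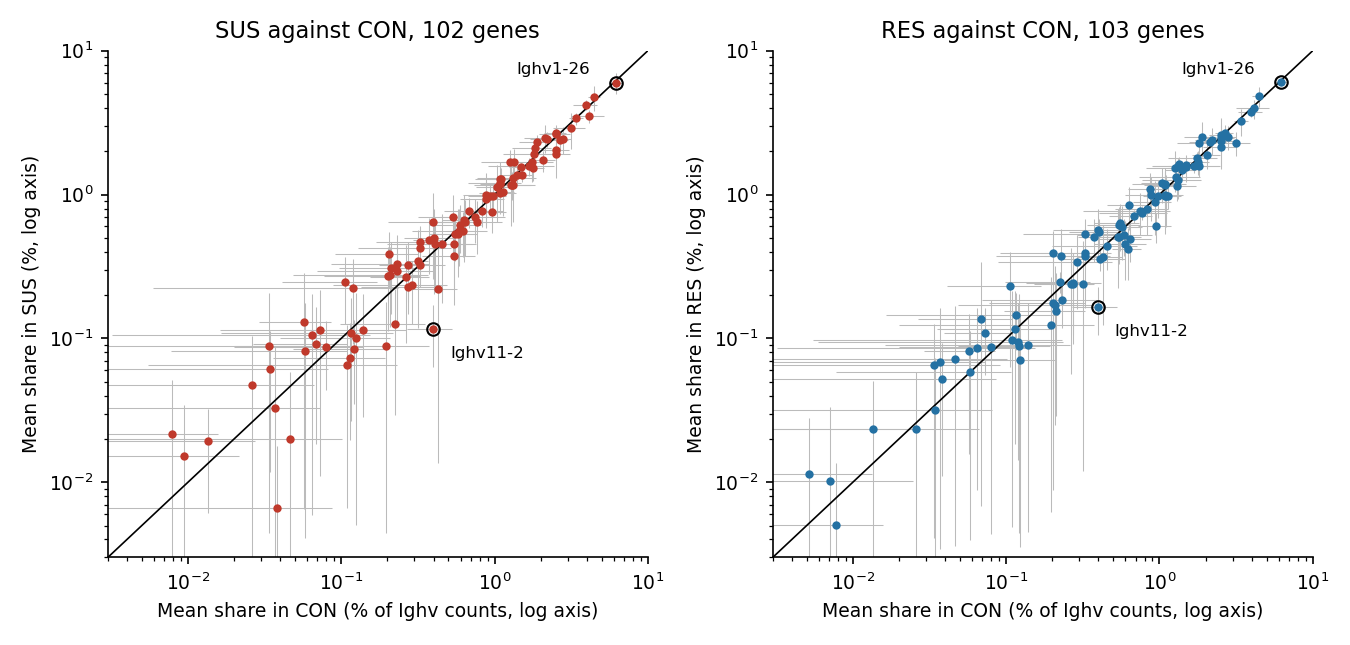
Mean share of Ighv counts in SUS (left, 102 genes) and RES (right, 103 genes) libraries against that in CON libraries (percent, log axes), for genes above 0.003% in both groups. Points are genes, bars are SDs over libraries, the line marks equal shares, and Ighv1-26 and Ighv11-2 are ringed. Most genes lie along the line, with wider bars at low shares, and Ighv11-2 lies below it in both panels.

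Ighv11-2 (ENSMUSG00000096108), a gene recurrent in the B-1 repertoire, had the largest fall in both stressed groups among Ighv genes with a mean of at least 50 counts. Its mean over the 17 libraries was 54.1 counts, which passed that minimum only through the CON libraries, where it was high. The rank of Ighv11-2 among these genes therefore depends partly on the filter. Its share in the CON libraries was 0.34%, 0.59%, 0.23%, 0.47%, 0.45% and 0.32% of Ighv counts, from 77 to 116 counts. In SUS libraries it was 0.16%, 0.18%, 0.11%, 0.043%, 0.14% and 0.068%, from 6 to 54 counts. In RES libraries it was 0.19%, 0.17%, 0.25%, 0.13% and 0.096%, from 24 to 51 counts. Every SUS library stood below every CON library, while RES replicate 43 reached into the CON range. As TMM-scaled levels, Ighv11-2 had 2.63 ± 0.80 CPM in CON (SD, n = 6), 0.716 ± 0.31 in SUS and 1.04 ± 0.40 in RES libraries. The log2 fold change in SUS vs. CON mice was -1.86 (SE 0.52). In edgeR's quasi-likelihood test across all genes its unadjusted p of 0.00135 ranked 30th among 17620, and it did not pass after adjustment (adjusted p = 0.755, and 0.297 to 1.00 over the other edgeR settings). DESeq2 called the same change at an adjusted p of 0.0237 (log2 fold change -1.86, SE 0.45).

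Relative to the summed Ighv counts, the edgeR log2 fold change of Ighv11-2 in SUS vs. CON mice was -1.76 (SE 0.51). On the TMM scale, where the value was -1.86, leaving out each library in turn gave -1.99 to -1.68. In RES vs. CON mice the log2 fold change was -1.34 (SE 0.54, unadjusted p = 0.0206, adjusted p = 1.00 with edgeR), and in SUS vs. RES mice -0.53 (SE 0.53, adjusted p = 1.00 with edgeR). SUS and RES mice were compared with the same CON libraries. By CPM, Ighv11-2 was the 1 Ighv gene of 99 whose SUS and CON libraries did not overlap, where 0.17% of all genes tested did not. For RES against CON mice this was 0 of 99 (all genes 0.358%), and for SUS against RES mice 0 of 99 (0.238%). With Ighv11-1 added, the Ighv11 family held 0.41% ± 0.13 in CON, 0.14% ± 0.049 in SUS and 0.17% ± 0.067 in RES libraries, and SUS (0.068% to 0.20%) again stayed below CON (0.23% to 0.60%). Ighv11-1 itself reached 11 counts in SUS replicate 45, above the 6 of Ighv11-2 there.

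Other genes associated with B-1 cells were read beside it. Ighv12-3, the other B-1 repertoire gene of the list, had 0.11% ± 0.079 in CON, 0.074% ± 0.054 in SUS and 0.12% ± 0.098 in RES libraries, with overlapping ranges. Cd5, a surface glycoprotein of B-1a and T cells, stood at 1.13 ± 0.86 TMM-scaled CPM in CON, 1.85 ± 1.25 in SUS and 1.37 ± 0.76 in RES libraries. Bhlhe41 and Zbtb32, transcription factors high in B-1 cells, stood at 4.79 ± 0.97 and 7.11 ± 3.91 CPM in CON libraries. Their values were 4.27 ± 1.35 and 6.59 ± 2.99 CPM in SUS, and 5.28 ± 2.41 and 8.12 ± 1.45 CPM in RES libraries. Of these 3 markers, 0 were called by edgeR and 0 reached an unadjusted p under 0.05 in any comparison, with a log2 fold change of 0.70 (SE 0.60) for Cd5 in SUS vs. CON mice.

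**Figure D5:**
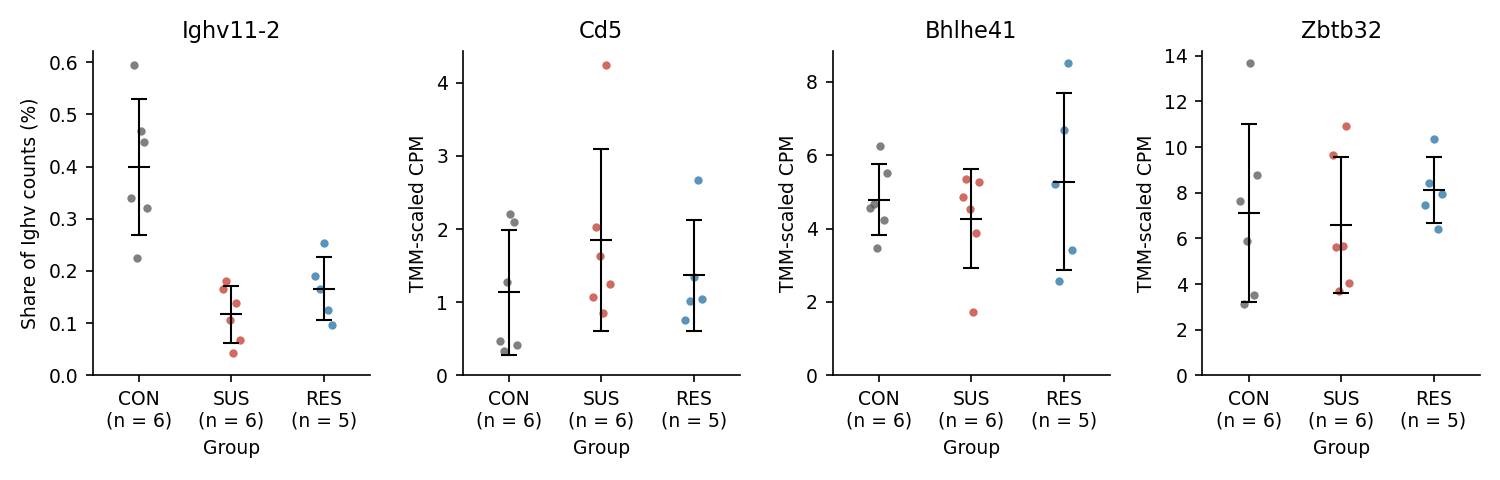
Share of Ighv11-2 in Ighv counts (percent) and TMM-scaled CPM of the B-1 cell markers Cd5, Bhlhe41 and Zbtb32 in each B cell library of CON (n = 6), SUS (n = 6) and RES (n = 5). Points are libraries and bars the mean ± SD. The SUS values of Ighv11-2 (0.043% to 0.18%) lie below the CON values (0.23% to 0.59%), whereas the groups overlap for the 3 markers.

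Markers of other blood cells were unequal between the same groups, here as summed CPM of the library total. The 4 platelet markers summed to 19.2 to 34.5 CPM in CON and 10.0 to 90.3 CPM in SUS, the 5 monocyte markers to 25.0 to 45.6 and 36.1 to 112.5 CPM, the 6 red cell markers to 1416 to 5285 and 2889 to 12671.6 CPM, and the 6 neutrophil markers to 0 to 0.889 and 0.0884 to 6.20 CPM. In RES libraries the platelet sum was 20.6 to 31.2, the monocyte sum 32.5 to 114.4, the red cell sum 2795 to 11233.2 and the neutrophil sum 0.361 to 2.11 CPM. Elane, a neutrophil granule protease, was at 0 in all 17 libraries, and Ly6g, a neutrophil surface marker, in all CON libraries. At an unadjusted p under 0.05 in SUS vs. CON mice, 3 of 4 platelet and 2 of 5 monocyte markers were higher. So were 2 of 6 red cell markers, where 1.99% of all genes tested were higher. Of the 6 neutrophil markers only S100a9 and Ngp had enough counts to be tested, and each was higher. S100a9 passed the count filter through libraries of stressed mice (mean 0.0131 TMM-scaled CPM in CON, 0.834 in SUS), so its direction was largely set by the filter. Ngp passed it mainly through libraries of stressed mice as well (mean 0.252 TMM-scaled CPM in CON, 1.42 in SUS), so the same limit holds for Ngp. None of these markers was called by edgeR. At the same unadjusted threshold in RES vs. CON mice, 1 of 5 monocyte and 1 of 6 red cell markers were higher, where 1.8% of all genes tested were. The part of these cells in the values of Ighv11-2 was not tested.

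Among Ighv genes with a mean of at least 50 counts, the other large changes had wide spreads. In SUS vs. CON mice Ighv8-6 had a log2 fold change of -1.08 (SE 0.56), with 0.036% to 0.60% of Ighv counts in SUS against 0.26% to 0.60% in CON libraries. On the other side were Ighv1-47 (0.79, SE 0.50) and Ighv2-5 (0.52, SE 0.49), and CON replicate 38 was lowest of the 17 libraries for both. In RES vs. CON mice, Ighv5-6 had a log2 fold change of -0.75 (SE 0.30, unadjusted p = 0.0206 with edgeR), with 0.70%, 0.44%, 0.48%, 0.77% and 0.64% in RES libraries and 0.58% to 1.29% in CON. Ighv1-47 (0.82, SE 0.52) and Ighv5-9 (0.59, SE 0.49) were the largest on the higher side. Ighv1-64 was at 3.14% ± 0.73 in CON and 2.29% ± 0.43 in RES libraries (log2 fold change -0.54, SE 0.22, unadjusted p = 0.0210 with edgeR). Ighv1-80 had a log2 fold change of -0.36 (SE 0.17, unadjusted p = 0.0462 with edgeR) in SUS vs. CON mice. In SUS vs. RES mice the extremes among genes with that mean count were Ighv8-6 (-0.78, SE 0.58), Ighv4-1 (-0.72, SE 0.39), Ighv5-2 (0.65, SE 0.62) and Ighv2-9 (0.90, SE 0.83). Genes with fewer counts had larger fitted values, such as Ighv8-11, at -2.91 (SE 1.54) in SUS vs. RES mice, with 0 to 8 counts in SUS and 0 to 22 in RES libraries. All of these had adjusted p-values of at least 0.999 with edgeR, and their groups overlapped.

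Genes that act with the V genes were read from a list of heavy chain pathway genes. Ighm and Ighd are the constant regions of naive B cells. On the TMM-scaled CPM scale, not divided by gene length, Ighm stood at 3172 ± 283 in CON, 2905 ± 512 in SUS and 2838 ± 320 in RES libraries, and Ighd at 1384 ± 75.2, 1442 ± 103 and 1443 ± 84.0. Igha, a switched constant region, stood at 11.1 ± 12.6, 8.50 ± 4.34 and 19.6 ± 14.8. Of the 7 constant regions tested, 0 were called in any comparison, and 1, Ighg2c, was higher in both stressed groups at an unadjusted p under 0.05. Of all genes tested, 1.99% were higher in SUS and 1.8% in RES than in CON mice at that threshold. Ighg2c passed the count filter mainly through libraries of stressed mice, so its direction was partly set by the filter. Ighg2c ranged from 0 to 0.589 CPM in CON and from 0 to 5.29 CPM in SUS libraries, with medians of 0.0388 and 0.644 TMM-scaled CPM. Its log2 fold change was 3.24 (SE 1.27) in SUS vs. CON and 2.98 (SE 1.28) in RES vs. CON mice (adjusted p = 0.999 and 1.00 with edgeR), and neither value reached an unadjusted p under 0.05 in every fit without 1 library. The former was 2.40 without SUS replicate 39 and 4.17 without CON replicate 44, and the latter 1.16 without RES replicate 49. Of the other lists, 0 of 2 recombination genes (Rag1, which cuts at the V segments, and Dntt) and 0 of 3 octamer factors were called or reached an unadjusted p under 0.05.

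Among 6 signal partners of the heavy chain, 1 was lower and 0 were higher in SUS than in CON mice at an unadjusted p under 0.05. Of all genes tested, 1.43% were lower and 1.99% higher at that threshold. The 1 partner was Btk, the kinase downstream of the B cell receptor (log2 fold change -0.28, SE 0.10, unadjusted p = 0.0108, adjusted p = 0.999 with edgeR). Btk stood at 110.6 to 132.3 CPM in SUS against 136.4 to 180.9 CPM in CON libraries, without overlap. Of all genes tested, 0.17% did not overlap in this comparison. Of 5 plasma cell genes tested, Sdc1, which encodes the plasma cell surface proteoglycan syndecan, was at 16.0 ± 5.55 CPM in CON, 9.18 ± 1.64 in SUS and 10.1 ± 3.23 in RES libraries, with log2 fold changes of -0.80 (SE 0.23, adjusted p = 0.755 with edgeR) and -0.67 (SE 0.24, adjusted p = 1.00) against CON. Jchain, which links secreted antibodies, ranged from 0.0200 to 7.27 CPM in CON and from 0.0369 to 2.43 CPM in SUS libraries (log2 fold change -1.69, SE 0.85, adjusted p = 0.999 with edgeR). The other 3 plasma cell genes tested had log2 fold changes in SUS vs. CON mice of 0.71 (SE 0.87) for Prdm1, the transcription factor Blimp-1, 0.03 (SE 0.14) for Mzb1 and -0.0019 (SE 0.17) for Xbp1, and the median of the 5 was -0.0019.

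Outside B cells, Ighv reads were few and fell on few genes. T cell libraries other than library 70 held 6 to 198 Ighv counts, with a median of 1.14 CPM of the library total, and Ly6Chigh monocytes 0 to 221, with a median of 0.321 CPM. Ly6Clow monocytes held 34 to 4848, with a median of 9.19 CPM, against 447 to 812 CPM in the B cell libraries on the same scale. In the CON Ly6Clow library numbered 32, the 4848 counts were led by Ighv3-6 (20.8%), Ighv1-5 (13.0%) and Ighv1-74 (12.8%), and 24 genes were detected. In the RES library numbered 31, Ighv6-3 took 30.0% and Ighv1-26 17.9% of 2432 counts. In the CON library numbered 24, Ighv1-80 took 76.4% of 584 counts. Effective numbers of genes were 8.57, 6.33 and 1.63 in these 3 libraries, against 39.8 to 46.6 in B cells. Ighv11-2 held 298 counts in library 32, against 6 to 116 in the B cell libraries used. It took 54 of 67 Ighv counts in the SUS T cell library numbered 60. In the SUS Ly6Clow library numbered 19 it took 37 of 46. Library 70 held 64 counts of Ighv11-2, and the other T cell and monocyte libraries at most 20. Where these Ighv11-2 reads came from was not tested. The 6 plasma cell markers summed to 302.5 CPM in library 31 and 412.4 CPM in library 32, against 217.5 to 412.4 CPM over all Ly6Clow libraries. Within these 2 sums Xbp1 stood at 223.2 and 228 CPM, Jchain at 36.5 and 140.4, and Prdm1 at 34.2 and 26.8 CPM. Mzb1 stood at 1.17 and 9.89 CPM, against at least 59.2 CPM in the B cell libraries used. Cd79a stood at 8.02 and 19.5 CPM in libraries 31 and 32. The part of plasma cells in these reads was not tested.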

How the data were processed

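RNA was sequenced from sorted blood leukocytes, and 17 of the 18 B cell libraries were used. The authors used HISAT2 with the mm10 build for alignment and HTSeq for read counts per gene, and they deposited the raw counts as they stood. Their own differential tests used DESeq2, with the same 2 thresholds on adjusted p and fold change as the calls here. The strand option and the treatment of reads that fit several genes are not given in the sources used here. RNA came from few sorted cells amplified with a total RNA kit, so duplicates can widen the spread, and intervals from counts cover counting error only. Counts per B cell library ran from 30140183 to 42074062.

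Gene types, positions and transcript sequences came from GENCODE M21 (GRCm38), which matched 52403 of 52636 genes. Shares were taken of the summed counts of the 113 Ighv genes. Genes were tested with edgeR 4.0.16 in R 4.3.3 (filterByExpr on the 3 groups, TMM, robust quasi-likelihood F test). Benjamini-Hochberg adjustment ran over 17620 genes, and a gene was called under 0.05 with an absolute log2 fold change above 1. Each SE was derived from the fold change and its F statistic. Scripts were tested on simulated data. DESeq2 1.42.0, its size factors in edgeR, scaling to summed Ighv counts, no low-count filter, 2 groups only, RES replicate 52 kept and each library left out were alternatives. For evenness these were thinning to 13813 counts, only genes with at least 10 counts, counts per kb, leaving out the top gene and adding pseudogenes.

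The genes named were the 10 most used in CON, the leader of each other family with at least 0.1%, the 2 largest changes in each direction per comparison among genes with a mean of at least 50 counts, called genes, the leading gene of any library, Ighv11-1, Ighv11-2, Ighv12-3 and the pathway genes. Genes at an unadjusted p under 0.05, near-identical pairs, genes without counts and genes far from their median were named after their values were seen. The members and lists were chosen with earlier results of these data known. Some genes of these lists are not reported here.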

Additional observations from a re-analysis of the deposited data

Results flagged for a closer look

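Within groups of 5 or 6 libraries, the highest or lowest value was set against the gap expected by Dixon's criterion. It stood apart in 17 of 192 groups of values. For independent, normally spread values, chance flags about 1 in 20. These groups of values overlap, as with a family and its leading gene, and some hold few counts. The 17 can therefore not be read as an excess over that rate.

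CON replicate 38 stood apart in several values. Its evenness was 0.8394, against 0.857 to 0.8675 in the other CON libraries. Its share of the Ighv14 family was 5.804% (others 3.935% to 4.539%), that of Ighv14-2 was 3.028% (1.419% to 1.665%) and that of Ighv2-5 was 0.02049% (0.4082% to 0.5887%). In CON replicate 35, Ighv10-3 held 1.522% (0.9605% to 1.153%), and in CON replicate 50, Igha stood at 36.32 CPM (3.473 to 10.1).

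SUS replicate 45, with the fewest Ighv counts, gave Ighv1-26, its most used gene, 7.992% of Ighv counts, against 5.496% to 5.745% in the other SUS libraries. Its effective number of genes was 39.89 (44.33 to 46.61), and Ighv11-1 held 0.07964% in it (at most 0.02199%). SUS replicate 48 had 92 genes detected (98 to 101) and Cd5 at 4.239 CPM (0.8467 to 2.024). Pseudogenes added 0.5539% in SUS replicate 51 (0.8541% to 0.9778%), and the Ighv9 family held 8.097% in SUS replicate 39 (5.776% to 6.567%).

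Among RES libraries, Ighv11-1 held 0.01991% in replicate 43 (at most 0.005209% in the others), from 4 counts. Sdc1 stood at 15.65 CPM in the same library (7.623 to 9.548), and Ighg2c at 5.297 CPM in replicate 49 (0.03224 to 1.021).

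In T cells, which do not rearrange Ighv genes to completion, 4 libraries labelled RES held more summed Ighv CPM than the CON T cell libraries (0.7337 to 1.707): 2.664 in library 58, 4.892 in library 61, 2.047 in library 64 and 565.4 in library 70. Library 70 held Cd79a at 1079 CPM, and its usage was like that of B cells, with an evenness of 0.8468 and Ighv1-26 at 7.68%. No part of other cells in libraries 58, 61 and 64 was tested.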

How the results depend on the processing

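DESeq2 called 1 of 99 Ighv genes in SUS vs. CON mice, Ighv11-2, where it called 26 of 17620 genes (0.148%) and edgeR called 0 Ighv genes. In every other setting run, leaving out each library included, 0 Ighv genes were called in the 3 comparisons. For 15 fold changes of named Ighv genes (mean count at least 50), and those of Btk, Ighg2c and Sdc1 against CON, the direction was kept in all 340 fits without 1 library and in their other alternatives. Most of these fold changes were picked as the largest, or at an unadjusted p under 0.05 with edgeR, in the same libraries. A kept direction was therefore close to fixed in advance. The fits overlap, and some leave out a library of the group that is not compared.

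Evenness changed level with the genes counted. With genes of at least 10 counts in every library (68 genes) CON libraries had 0.92544, SUS 0.93044 and RES 0.92948. With pseudogenes it was 0.78438, 0.78793 and 0.78873, which put RES above SUS. Without the most used gene, RES evenness was 0.86693, and the Ighv1 share was 58.073%, 59.006% and 58.661%. With RES replicate 52 kept, RES evenness was 0.72994, the summed level 520.8 CPM and the Ighv1 share 67.641%, and 81 of 97 Ighv genes had a lower value in RES than in CON mice.

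Leaving out each library moved evenness between 0.85562 and 0.86124 in CON, 0.85999 and 0.86404 in SUS, and 0.85914 and 0.86235 in RES libraries. The summed level moved between 645.28 and 676.75, 588.31 and 637.74, and 613.49 and 640.16 CPM. The Ighv1 share moved between 60.326% and 60.965%, 60.811% and 61.915%, and 60.743% and 61.636%. No paired analysis was possible because no replicate number is shared between groups. Depth limits genes with few counts, of which 14 were not tested.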
